A study of Mus musculus with 24 samples.

Results

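Bone marrow-derived macrophages (BMDMs) of mice without CITED2 (KO) and of wild-type mice (WT) were compared in how their gene expression changed with interferon gamma (IFNg). The quantity described throughout is the genotype by IFNg interaction: the log2 difference between KO cells with IFNg and KO control cells, minus the same difference in WT cells. Of the 24 RNA sequencing libraries of the series, 12 enter this contrast, 3 in each of 4 groups: KO cells given IFNg, KO cells labelled control, WT cells given IFNg and WT cells labelled control. The labels give the strain C57BL/6 and an age of 10 postnatal weeks for both genotypes. They name neither the way in which the gene was removed nor the dose and length of the treatment. They also do not say whether the 3 libraries of a group came from separate animals or cultures, so every p-value measures only the spread between these libraries. The other 12 libraries, of cells given lipopolysaccharide (LPS) or IL4, entered only the estimate of that spread and the choice of the genes tested.

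IFNg is the main cytokine of classical macrophage activation. Its receptor, made of the chains Ifngr1 and Ifngr2, signals through the kinases Jak1 and Jak2 to genes that carry GAS elements. Factors such as Irf1 are induced, and guanylate-binding proteins, immunity-related GTPases, antigen presentation genes and the chemokine Cxcl9 follow. Many antiviral genes are instead controlled through interferon-stimulated response elements (ISRE), and inflammatory genes such as Cxcl2 through NF-kB. CITED2 itself binds no DNA: it competes with other proteins for the coactivators CBP and p300 and is best known as a brake on HIF-1.

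A gene entered the test when its normalised read count was at least 1 in at least 3 of the 24 libraries, and 18637 genes did. Each gene was sorted by the shape of its response. A called interaction (adjusted p below 0.05 over all 18637 genes, limma) counted as reversed when the responses of KO and WT were both called and had opposite signs, as stronger when the response of KO was the larger in size, and as weaker otherwise. A baseline shift only meant that KO differed from WT in the same direction in control cells and with IFNg, that no interaction was called, and that the 95% interval of the interaction lay within 1 log2 unit of 0. That limit is wider than most called interactions, whose median size was 0.56. Interactions in the class reached 0.64, so it does not exclude an interaction of the usual called size. An interaction was called for 466 genes (2.50% of those tested), with 246 positive (1.32%) and 220 negative (1.18%). The response of KO cells was stronger for 191 genes (1.02%), weaker for 255 (1.37%) and reversed for 20 (0.107%), while 522 genes (2.80%) showed a baseline shift only.

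The promoters of 6 genes described below are shown as examples of stronger and weaker rises in KO cells. Each was shown with an element that it matches, so the 6 do not represent all genes of these shapes. Matches to the ISRE lie in promoters of both kinds. The sequences are RefSeq promoters of build GRCm38.p6, 250 bases before to 50 bases after the gene start, written 5′ to 3′ on the strand of the gene. Capitals mark in each promoter only 1 of 3 elements, searched on both strands. Matches to the other elements stay in lower case, such as the NF-kB match gggactttcc near the end of the Slamf8 sequence. The ISRE was GAAA, any 2 bases and GAAA, and all matches shown lie on the other strand, as TTTC, any 2 bases and TTTC. The GAS element was TTCNNNGAA, and the NF-kB site was GGGA, any base and TTTCC. Ifit1 (chr19:34640639-34640938, plus strand) and Ifit3 (chr19:34583279-34583578, plus strand) are antiviral genes with a stronger rise in KO cells. Cxcl2 (chr5:90903649-90903948, plus strand) is a chemokine gene with a stronger rise. Gbp3 (chr3:142559794-142560093, plus strand), Slamf8 (chr1:172590519-172590818, minus strand) and Irf1 (chr11:53769764-53770063, plus strand) had a weaker rise.
Ifit1: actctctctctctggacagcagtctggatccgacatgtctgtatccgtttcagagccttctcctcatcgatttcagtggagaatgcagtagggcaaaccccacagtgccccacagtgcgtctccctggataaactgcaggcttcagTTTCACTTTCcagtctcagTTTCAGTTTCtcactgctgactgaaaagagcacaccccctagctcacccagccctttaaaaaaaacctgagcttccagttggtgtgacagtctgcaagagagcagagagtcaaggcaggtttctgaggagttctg
Ifit3: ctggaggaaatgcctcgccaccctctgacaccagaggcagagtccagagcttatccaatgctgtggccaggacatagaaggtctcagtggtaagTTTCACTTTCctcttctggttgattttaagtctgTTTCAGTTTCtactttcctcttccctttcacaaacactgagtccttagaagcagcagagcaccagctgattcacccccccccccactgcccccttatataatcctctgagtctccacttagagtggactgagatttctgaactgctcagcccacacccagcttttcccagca
Cxcl2: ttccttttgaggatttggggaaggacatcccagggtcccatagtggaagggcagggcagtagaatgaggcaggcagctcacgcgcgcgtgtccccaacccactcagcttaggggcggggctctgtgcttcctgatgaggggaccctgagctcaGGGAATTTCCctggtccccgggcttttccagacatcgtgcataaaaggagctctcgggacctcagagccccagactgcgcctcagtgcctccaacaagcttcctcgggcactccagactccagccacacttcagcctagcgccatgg
Gbp3: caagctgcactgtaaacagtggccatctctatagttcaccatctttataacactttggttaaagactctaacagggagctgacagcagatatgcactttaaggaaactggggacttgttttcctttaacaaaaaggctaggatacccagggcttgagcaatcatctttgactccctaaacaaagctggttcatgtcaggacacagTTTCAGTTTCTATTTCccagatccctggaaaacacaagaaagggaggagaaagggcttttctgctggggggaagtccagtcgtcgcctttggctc
Slamf8: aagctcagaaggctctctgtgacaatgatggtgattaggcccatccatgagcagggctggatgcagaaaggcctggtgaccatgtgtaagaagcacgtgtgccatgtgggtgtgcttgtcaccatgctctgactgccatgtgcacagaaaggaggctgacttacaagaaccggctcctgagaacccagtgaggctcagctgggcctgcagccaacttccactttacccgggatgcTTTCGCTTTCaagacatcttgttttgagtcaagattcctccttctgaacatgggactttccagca
Irf1: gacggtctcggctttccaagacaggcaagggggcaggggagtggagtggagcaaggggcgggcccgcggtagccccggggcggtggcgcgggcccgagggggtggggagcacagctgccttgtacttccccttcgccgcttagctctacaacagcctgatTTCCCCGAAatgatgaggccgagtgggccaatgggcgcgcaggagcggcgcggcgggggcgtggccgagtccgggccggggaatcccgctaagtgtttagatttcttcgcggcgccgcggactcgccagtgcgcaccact

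In Ifit1 the ISREs began 104 and 85 bases before the gene start, and in Ifit3 156 and 122 bases before it. The ISRE matches in Gbp3 began 45 and 39 bases before the start and overlapped each other, and that in Slamf8 began 15 bases before it. The GAS element of Irf1 began 90 bases and the NF-kB site of Cxcl2 97 bases before the start. Over all 32851 RefSeq promoters of the same length, an ISRE was found in 3.44%, a GAS element in 8.3% and the NF-kB site in 0.411%. An ISRE was found in 17 of 127 promoters (13.4%) of genes with a stronger rise and in 8 of 169 promoters (4.73%) of genes with a weaker rise. For the GAS element these shares were 12.6% and 8.28%, and for the NF-kB site 2.36% and 1.18%. Among the antiviral genes described below, 9 of 13 promoters of genes with a called interaction held an ISRE, against 11 of 23 promoters of the genes without one. None of the 3 elements was found in the promoter windows of Cmpk2, Tlr2, Prcp, Itgb8 and Fzd1. A match describes these letters only, and binding was not measured.

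Between 7818719 reads (WT control replicate 3) and 73409343 reads (WT IFNg replicate 3) lay behind the 12 libraries, with a median of 29100478. The shallowest of all 24 libraries, KO LPS replicate 1, had 1478507 reads and entered the estimate of the spread. Without it 690 interactions were called, against 466 with it. Cited2 (ENSMUSG00000039910; chromosome 10, 17723218 to 17725674, plus strand; positions are of build GRCm38) had normalised read counts of 11.9, 10.2 and 18.7 in KO IFNg, 20.2, 39.7 and 23.7 in KO control, 2308, 2623 and 2383 in WT IFNg and 2298, 2179 and 2144 in WT control libraries. The level in KO cells was 0.558% of that in WT cells with IFNg and 1.26% in control cells, without overlap between the genotypes. The KO values rest on 7 to 38 reads per library, and the interaction of Cited2 itself was -1.11 ± 0.47 (adjusted p = 0.38, 0.027 to 0.73 over the alternatives tried). The 8 macrophage markers, Csf1r, Cd68 and Adgre1 among them, had reads in all 12 libraries. They summed to 152718 to 159796 in KO cells with IFNg, 130952 to 141209 in KO control cells, 169842 to 172384 in WT cells with IFNg and 140450 to 151358 in WT control cells. These are bulk samples, so a change in RNA per cell and a change in the share of cells that carry it cannot be told apart.

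**Figure D1:**
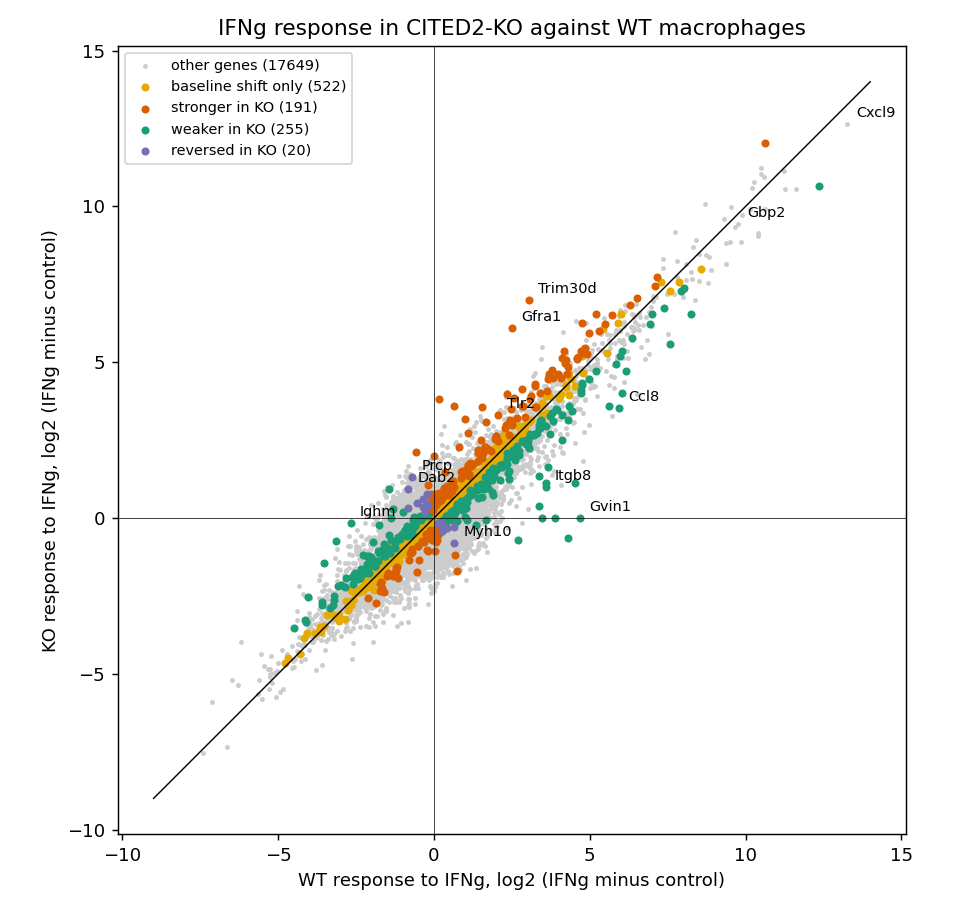
The log2 response to IFNg of each of 18637 genes in WT cells (x axis) against that in KO cells (y axis), coloured by response shape, with the line of equal responses. Genes lie along the line over the whole range of induction, with Trim30d and Gfra1 above it, Ccl8, Itgb8 and Gvin1 below it, and Prcp, Dab2 and Myh10 in the quadrants of opposite sign.

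IFNg changed 8572 genes in KO cells (46.0% of those tested; 22.3% up and 23.7% down) and 8412 in WT cells (45.1%; 22.5% up and 22.6% down), as the scatter of responses shows. The median size of the 466 called interactions was 0.56 on the log2 scale, and 72 of them reached 1. Stronger responses divided into 135 rises and 56 falls, and weaker responses into 154 rises and 101 falls. On the linear scale the difference of differences kept its sign for 173 of 191 stronger, 223 of 255 weaker and 20 of 20 reversed responses. A log2 interaction in which the level with IFNg was alike and the control level differed is therefore not always a difference in the amount of RNA gained. The interaction, both responses and both comparisons of genotypes share libraries, so their values are given side by side for each gene and no overlap between them is read as a result. Of the 466 calls, 317 held when each of the 12 libraries was left out in turn. Calls were more frequent among genes that IFNg changed. They came to 9.65% of the 2103 genes raised by at least 1 log2 unit in the mean of both genotypes. Among the 2466 genes lowered by as much they came to 3.33%, and among the other 14068 to 1.29%. For lists of IFNg-induced genes the share over all genes is therefore a low background.

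The IFNg receptor chain Ifngr1 had normalised read counts of 1694, 1869.8 and 1844 in KO IFNg, 2337, 2311 and 2421 in KO control, 2539.8, 2846 and 2713 in WT IFNg and 3400.4, 3279 and 3229 in WT control libraries. The KO values lay below the WT values in both states, with log2 differences of -0.58 with IFNg (adjusted p = 6.5e-07) and -0.49 in control cells (adjusted p = 1e-05), a baseline shift with an interaction of -0.10 ± 0.09. Ifngr2 averaged 4353 ± 116 in KO IFNg, 3794 ± 115 in KO control, 4287 ± 4.20 in WT IFNg and 3392 ± 30.6 in WT control libraries (SD, n = 3 per group, as for all levels written with ±; log2 values carry the standard error), with an interaction of -0.14 ± 0.05 (adjusted p = 0.25). Jak1 and Jak2, the receptor kinases, had interactions of -0.05 ± 0.06 and -0.09 ± 0.09, with adjusted p of 0.98 and 0.96. Socs1, the feedback inhibitor of the pathway, rose by 7.63 ± 0.22 in KO and 8.07 ± 0.22 in WT cells (interaction -0.45 ± 0.30, adjusted p = 0.79). Of 21 genes of the receptor and signalling list, an interaction was called for 1 in each direction, Irf8 and Irf1 (1.32% positive and 1.18% negative over all genes).

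Irf1, the factor that carries much of the later response, had values of 60894, 61592 and 61882 in KO IFNg, 2209.9, 2411 and 2389.7 in KO control, 60134, 59320.3 and 61606 in WT IFNg and 1756, 1707 and 1453 in WT control libraries. The genotypes overlapped with IFNg and were apart in control cells, where KO was higher. Its rise was weaker in KO (4.72 ± 0.06) than in WT (5.21 ± 0.06), an interaction of -0.49 ± 0.08 (adjusted p = 0.00041). Irf8, a lineage factor of macrophages that IFNg also induces, was higher in KO in both states, at 61769.7, 54603 and 56440.1 in KO IFNg, 4741, 5055 and 4728 in KO control, 37819.9, 36114 and 37519 in WT IFNg and 3660.3, 3787 and 4010.5 in WT control libraries. Its interaction of 0.29 ± 0.08 had an adjusted p of 0.041 and was lost in 14 of 23 alternatives. These were edgeR, median centring, the 12-library fit, the replicate block and the fit without a filter (adjusted p 0.053 to 0.073), and the fits that left out any 1 of 9 of the 12 libraries (adjusted p 0.063 to 0.13). The exceptions among the libraries were KO control replicate 2, KO IFNg replicate 2 and WT control replicate 1, without which it was 0.033, 0.025 and 0.036.

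Among textbook IFNg targets the interactions were small beside the responses. Cxcl9, a T cell attracting chemokine, was 205353, 206580.0 and 215884 in KO cells with IFNg and 339312, 374260.0 and 370960.0 in WT cells with IFNg, against 13.5, 46.0 and 50.9 in KO control cells and 38.8, 38.0 and 31.8 in WT control cells. All 3 KO values with IFNg were below the WT values (a log2 difference of -0.79 ± 0.30, adjusted p = 0.13), while control cells spread widely. That standard error comes from 1 spread over all 8 groups, control cells included, and not from the libraries with IFNg alone. The interaction was -0.61 ± 0.43 (adjusted p = 0.81) and turned on the control libraries. It was -1.20 and called without KO control replicate 1 (adjusted p = 0.013), -0.35 and -0.28 without KO control replicates 2 and 3, and 0.02 with library weights. Gbp2, a guanylate-binding protein, rose by 9.44 ± 0.10 in KO and 9.76 ± 0.10 in WT cells, with an interaction of -0.32 ± 0.14 (adjusted p = 0.43). It was -0.13 without WT control replicate 3 and -0.15 with library weights, neither called. Gbp3 was 44404, 48825 and 47857 in KO IFNg, 285, 297 and 317 in KO control, 42734, 46274 and 44574 in WT IFNg and 159.6, 217 and 176 in WT control libraries. With IFNg the genotypes lay close together, while the KO control values were all above the WT control values, and the weaker rise of KO gave an interaction of -0.63 ± 0.11 (adjusted p = 0.0012). It was the 1 call among 9 guanylate-binding proteins (11.1%), beside negative calls for 1.18% and calls for 2.50% of all genes. Among the genes raised by at least 1 log2 unit the share called was 9.65%, close to that of this list. All 9 rose in both genotypes, where 22.3% of all genes rose in KO and 22.5% in WT cells. Of 10 immunity-related GTPases 0 were called by limma (1 at an unadjusted p below 0.05) and 0 by edgeR, and at most 1 under any alternative. Their median rise was 5.87 in KO and 5.99 in WT cells.

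Ciita, the transactivator on which MHC class II genes depend, had values of 4869, 4191 and 4326 in KO IFNg, 33.1, 33.5 and 30.7 in KO control, 5361, 5142 and 5363 in WT IFNg and 63.1, 53.5 and 53.7 in WT control libraries. KO control cells were at 57.1% of WT control cells, and KO cells at 84.4% of WT cells with IFNg. The interaction was 0.54 ± 0.13 (adjusted p = 0.026). It was lost without KO control replicate 3, KO IFNg replicate 1, WT control replicate 1 or any 1 WT IFNg library (adjusted p 0.059 to 0.096), after median centring (0.055) and in edgeR (0.069). Nos2, the inducible nitric oxide synthase, was 37886, 33795 and 35056 in KO IFNg, 8.58, 6.27 and 7.89 in KO control, 31031, 28245 and 30751 in WT IFNg and 8.63, 16.8 and 39.1 in WT control libraries. Its values were all higher in KO with IFNg and all lower in KO in control cells, where it was near the limit of counting. The interaction of 1.40 ± 0.38 (adjusted p = 0.048) was called in 6 of 23 alternatives and lost in 17 (adjusted p 9.8e-05 to 0.20 over all of them). Leaving out WT control replicate 1 gave 1.89 and leaving out WT control replicate 3, the shallowest of the 12, gave 0.86, both called, while leaving out any 1 of the other 10 libraries ended the call (adjusted p 0.063 to 0.14).

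Reversed responses numbered 20, with 10 in each direction. Prcp (ENSMUSG00000061119; chromosome 7, 92874470 to 92934583, plus strand), a lysosomal carboxypeptidase that cleaves angiotensin and kinins, had normalised read counts of 8007, 8827 and 8607 in KO IFNg, 3443, 3386 and 3470.1 in KO control, 1545, 1596 and 1572 in WT IFNg and 2596, 2512 and 2557 in WT control libraries. None of the 4 groups overlapped another. IFNg raised it by 1.30 ± 0.05 in KO cells and lowered it in WT cells (a response of -0.70 ± 0.05), an interaction of 2.00 ± 0.08 (adjusted p = 3.4e-14). Dab2 (ENSMUSG00000022150; chromosome 15, 6299788 to 6440712, plus strand), an endocytic adaptor that also restrains inflammatory signalling in macrophages, was 3397, 3314 and 3679 in KO IFNg, 1744, 1782 and 1975 in KO control, 2880.5, 3129.5 and 3078 in WT IFNg and 5216, 5685 and 5199.9 in WT control libraries. KO cells started below WT cells and ended above them, with responses of 0.92 ± 0.06 in KO and -0.82 ± 0.06 in WT cells (interaction 1.74 ± 0.09, adjusted p = 6.9e-12). Tlr7 (ENSMUSG00000044583; chromosome X, 167304929 to 167330558, minus strand), the endosomal sensor of single-stranded RNA, was 5669, 6730.0 and 6084 in KO IFNg, 5070.4, 4553 and 5189.8 in KO control, 3491, 4108 and 3814 in WT IFNg and 6879, 7032 and 6397 in WT control libraries. With IFNg all KO values were above all WT values and in control cells all were below, with responses of 0.32 ± 0.08 in KO and -0.83 ± 0.08 in WT cells (interaction 1.15 ± 0.11, adjusted p = 9.3e-07).

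The mannose receptor Mrc1, a marker of alternative activation, followed the same pattern at 7661, 8479 and 8237 in KO IFNg, 4727, 4428 and 5194 in KO control, 5779.8, 6692 and 6314 in WT IFNg and 7291, 7682 and 7066 in WT control libraries. Its response was 0.77 ± 0.08 in KO and -0.23 ± 0.08 in WT cells (interaction 1.00 ± 0.11, adjusted p = 3.4e-06). Maf, a transcription factor of resident macrophages, was 6235, 6334 and 6505 in KO IFNg, 4679.5, 4544 and 4817 in KO control, 6547, 7438 and 6833 in WT IFNg and 7866, 8526 and 8082 in WT control libraries. KO cells were below WT cells in both states, and the gap was smaller with IFNg (interaction 0.68 ± 0.09, adjusted p = 2.8e-05). Pgm2l1, a glucose 1,6-bisphosphate synthase, had an interaction of 1.04 ± 0.15 (adjusted p = 6.9e-05). Also in this direction were Dusp6, Elk3, Pck2 and Spryd7, with interactions of 0.48 to 0.96.

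In the other direction, WT cells raised and KO cells lowered a gene with IFNg. Myh10, the heavy chain of nonmuscle myosin IIB, was 120.3, 121 and 120.5 in KO IFNg, 216, 216 and 203 in KO control, 155, 159.6 and 142 in WT IFNg and 96.5, 112 and 83.0 in WT control libraries. Its response was -0.80 ± 0.18 in KO and 0.65 ± 0.18 in WT cells (interaction -1.46 ± 0.25, adjusted p = 0.00082). Btg2, an antiproliferative gene, was 607, 597 and 701 in KO IFNg, 803, 753 and 823 in KO control, 827, 866 and 866 in WT IFNg and 639, 620.4 and 662 in WT control libraries, with an interaction of -0.74 ± 0.15 (adjusted p = 0.0045). The control values of both genes were higher in KO and their values with IFNg lower. The remaining 8 genes, Enc1, Myo1g, Ncoa7, Pacs1, Ppp1r12b, Rtel1, Tbc1d1 and Usp4, had interactions between -0.94 (Pacs1) and -0.27 (Usp4). The 12 genes listed here without their values by library were named after their values were seen. The calls of Pck2, Spryd7, Myo1g, Ncoa7, Rtel1 and Usp4 did not hold in each of the 12 fits that left out 1 library (5, 9, 6, 9, 3 and 11 of them kept the call).

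**Figure D2:**
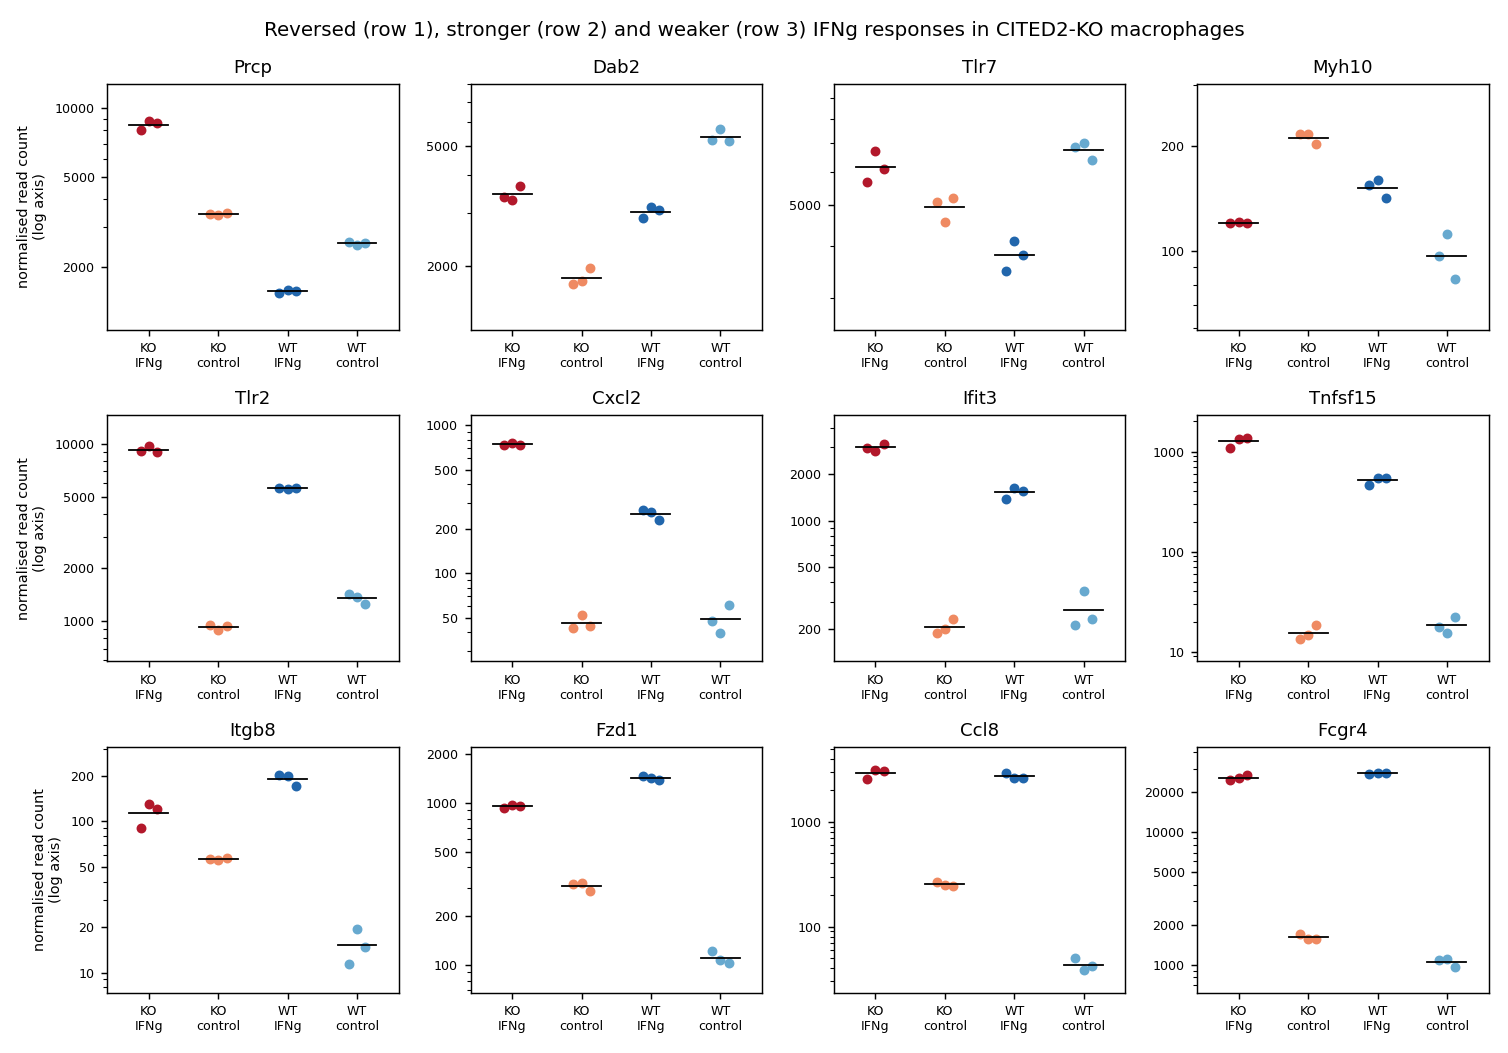
Normalised read counts (log axis, scaled for each gene) of 12 genes with reversed (row 1), stronger (row 2) or weaker (row 3) responses in KO cells; points are the 3 libraries of a group and lines their mean. Prcp, Dab2 and Tlr7 are higher with IFNg than in control cells in KO and lower in WT; Tlr2, Cxcl2, Ifit3 and Tnfsf15 are highest in KO cells with IFNg; Itgb8, Fzd1, Ccl8 and Fcgr4 are higher in KO than in WT in control cells.

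Antiviral genes rose with IFNg in both genotypes, and part of them rose further in KO cells. All 41 measured genes of the type I interferon and antiviral list were raised in both (22.3% of all genes rose in KO and 22.5% in WT cells), by a median of 3.58 in KO and 3.23 in WT cells. An interaction was called for 16 of the 41 (39.0%), 15 positive and 1 negative (Oasl1, at -0.59). Calls came to 2.50% over all genes and to 9.65% of the genes raised by at least 1 log2 unit. The list's median interaction was 0.31, against -0.02 over all genes. Over the alternatives the positive calls numbered 13 to 25 and the median stayed between 0.28 and 0.38. With IFNg 23 of the 41 were higher and 0 lower in KO, where 4.83% of all genes were higher and 4.21% lower (9.05% in all). In control cells 7 were higher and 7 lower, beside 4.11% and 3.05% of all genes (7.16% in all). The list was drawn up with results of these data known.

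Cmpk2, a mitochondrial nucleotide kinase induced by interferons, had values of 7344, 7453 and 7899 in KO IFNg, 384, 355 and 416 in KO control, 3473, 3877 and 3534 in WT IFNg and 345, 419 and 388 in WT control libraries. The control cells of the genotypes overlapped and the cells with IFNg did not. Its rise was 4.29 ± 0.08 in KO and 3.24 ± 0.08 in WT cells, an interaction of 1.06 ± 0.11 (adjusted p = 1.3e-06). Ifit3, which binds viral RNA with Ifit1, was 2955, 2842 and 3144 in KO IFNg, 189.9, 199 and 231 in KO control, 1393, 1632 and 1556 in WT IFNg and 213, 351 and 232 in WT control libraries, and its interaction was 1.30 ± 0.16 (adjusted p = 1.4e-05). Ifit1, whose promoter is shown above, was 8683, 9451 and 9641 in KO IFNg, 241, 237 and 318 in KO control, 5738, 6523 and 6145 in WT IFNg and 333, 438 and 310.2 in WT control libraries, lower in KO control cells on average but higher in KO with IFNg (interaction 1.03 ± 0.15, adjusted p = 8e-05). Oas2, a sensor of double-stranded RNA, had an interaction of 0.69 ± 0.09 (adjusted p = 4.7e-05). Ifit3b, a near copy of Ifit3 that may share reads with it, had one of 2.18 ± 0.32. Rsad2 (viperin) and Isg15, the ubiquitin-like modifier, rose further in KO by 0.86 and 0.63. Irf7 and Ifi44 were instead higher in KO in both states, with uncalled interactions of 0.24 (adjusted p = 0.75) and 0.64 (adjusted p = 0.0501, called in 8 of 23 alternatives).

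Chemokine genes moved in both directions. Of 20 measured, 5 were called as positive and 2 as negative (1.32% and 1.18% of all genes), with a list median of 0.33. Cxcl2, a neutrophil chemokine, was 737, 757 and 731 in KO IFNg, 42.9, 52.3 and 43.8 in KO control, 268, 258 and 229.9 in WT IFNg and 48.0, 39.3 and 61.1 in WT control libraries. Control cells overlapped and KO cells with IFNg stood at 294% of WT cells with IFNg, an interaction of 1.63 ± 0.17 (adjusted p = 1.3e-06). Ccl3 and Ccl4, which attract monocytes and lymphocytes, fell less or not at all in KO. Ccl4 was 342, 318 and 302 in KO IFNg, 279, 272 and 283 in KO control, 172, 199 and 174 in WT IFNg and 379.6, 317 and 396 in WT control libraries, a fall of WT cells (-1.0 ± 0.11) beside a response of 0.20 ± 0.11 in KO cells that was not called (interaction 1.20 ± 0.15, adjusted p = 1.9e-05). Ccl3 fell in both, with responses of -0.55 in KO and -1.45 in WT cells (interaction 0.90 ± 0.10, adjusted p = 2.9e-06). Ccl8, a ligand of monocyte receptors, took the opposite course at 2558, 3143 and 3086 in KO IFNg, 267, 251 and 242 in KO control, 2948, 2593 and 2609.7 in WT IFNg and 49.6, 38.7 and 41.5 in WT control libraries. Its values with IFNg overlapped, whereas KO control cells were already at 585% of WT control cells, so that the rise was 3.52 ± 0.12 in KO and 5.94 ± 0.12 in WT cells (interaction -2.42 ± 0.16, adjusted p = 1.4e-09).

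Toll-like receptors and other innate sensors had 6 positive and 0 negative calls of 32 measured in limma (1.32% and 1.18% of all genes), although the list's median interaction was 0.01 (7 and 4 at an unadjusted p below 0.05; 5 positive and 0 negative calls in edgeR). Tlr2 (ENSMUSG00000027995; chromosome 3, 83836272 to 83841767, minus strand), the receptor for bacterial lipopeptides, was 9093, 9655 and 8971 in KO IFNg, 953, 892 and 939 in KO control, 5649, 5559.8 and 5636 in WT IFNg and 1421, 1369.8 and 1246 in WT control libraries. KO cells were below WT cells in control and above them with IFNg, and the rise was 3.31 ± 0.05 in KO and 2.06 ± 0.05 in WT cells (interaction 1.25 ± 0.07, adjusted p = 1.2e-10). Tlr8 and Tlr13, endosomal sensors of RNA like Tlr7, fell in both genotypes and fell less in KO. Tlr13 was 1657, 1909 and 1849.7 in KO IFNg, 10285, 9793 and 10764 in KO control, 999.6, 1066 and 995 in WT IFNg and 9121, 9704 and 9452 in WT control libraries, higher in KO in both states, with an interaction of 0.70 ± 0.11 (adjusted p = 0.0004), and that of Tlr8 was 0.67 ± 0.12 (adjusted p = 0.00072).

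Inflammatory cytokine and NF-kB target genes had 6 positive and 4 negative calls of 39, against 2.50% called over all genes. Nlrp3, the inflammasome sensor, was 5774, 5705 and 5734 in KO IFNg, 235, 226 and 231 in KO control, 7829, 7521 and 7802 in WT IFNg and 481, 476 and 501 in WT control libraries. It was lower in KO in both states, and by less with IFNg, so that its interaction was positive (0.65 ± 0.08, adjusted p = 1.4e-05). Il1rn, the decoy ligand of the interleukin 1 receptor, rose by 6.00 ± 0.07 in KO and 5.29 ± 0.07 in WT cells (interaction 0.71 ± 0.10, adjusted p = 4e-05). Tnfaip3, the NF-kB inhibitor A20, and Csf1, the macrophage growth factor, rose less in KO, with interactions of -0.49 ± 0.07 and -0.72 ± 0.09 (adjusted p = 3.8e-05 and 2.5e-05). Both were higher in KO control cells and lower in KO cells with IFNg than in the WT groups.

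Part of the stronger rises in these lists came from a lower start and not from a higher level with IFNg. Tnf, the central inflammatory cytokine, averaged 25948 ± 1099 in KO IFNg, 122 ± 18.7 in KO control, 27086 ± 835 in WT IFNg and 192 ± 30.2 in WT control libraries, with an interaction of 0.59 ± 0.13 (adjusted p = 0.0064). Ier3, an early response gene, was 895, 749 and 728 in KO IFNg, 39.8, 35.5 and 46.5 in KO control, 814, 754 and 734 in WT IFNg and 71.2, 65.1 and 107 in WT control libraries, with overlap with IFNg and none in control cells (interaction 0.99 ± 0.20, adjusted p = 0.0051). Nfkbiz, a nuclear regulator of NF-kB, averaged 1818 ± 111 in KO and 1959.6 ± 39.7 in WT cells with IFNg, against 294 ± 18.7 in KO and 496 ± 30.4 in WT control cells (interaction 0.64 ± 0.10). Tgm2, a transglutaminase also known as a marker of alternative activation, was 23775, 20635 and 21016 in KO IFNg, 644, 822 and 631 in KO control, 22089, 19963 and 21572 in WT IFNg and 1084, 1154 and 1219 in WT control libraries, which is the same order (interaction 0.77 ± 0.12, adjusted p = 0.00016). The genotype difference of these 4 genes was called in control cells and not with IFNg. Tnf and Nfkbiz were named after their values were seen.

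Ligands that act on T cells were divided too, with 4 positive and 3 negative calls of 16 (2.50% of all genes were called). Tnfsf15 (TL1A), a costimulatory cytokine, was 1081, 1342 and 1376 in KO IFNg, 13.5, 14.6 and 18.4 in KO control, 464, 543 and 539 in WT IFNg and 17.8, 15.5 and 22 in WT control libraries, an interaction of 1.52 ± 0.21 (adjusted p = 6.5e-05). Its control values overlapped and its values with IFNg did not. Lgals9, the galectin that binds Tim-3, had an interaction of 0.62 ± 0.07 (adjusted p = 1.2e-05). Slamf8, an inhibitory receptor of the SLAM family, was 26188, 27654 and 26616 in KO IFNg, 1252, 1200.3 and 1227 in KO control, 26472, 25378 and 26674 in WT IFNg and 867, 851 and 769 in WT control libraries, overlapping with IFNg and higher in KO control cells (interaction -0.53 ± 0.07, adjusted p = 1.4e-05). Vsir (VISTA), a checkpoint ligand, fell in both, with responses of -1.81 in KO and -1.29 in WT cells (interaction -0.53 ± 0.08, adjusted p = 0.00013), and the genotypes overlapped only with IFNg.

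**Figure D3:**
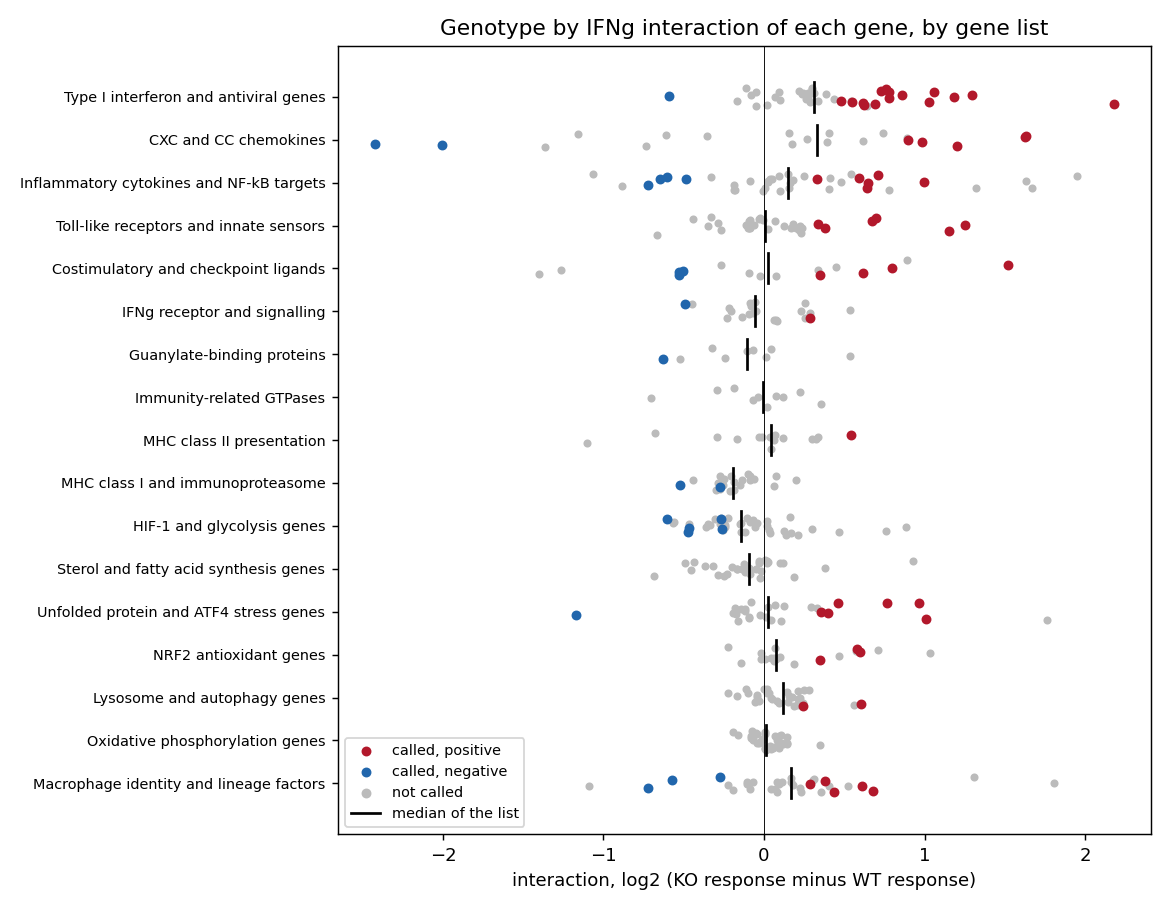
The interaction (log2, KO response minus WT response) of each measured gene in 17 gene lists; red and blue points passed the test, grey points did not, and the black line is the list's median. Red points prevail among antiviral genes (15 positive against 1 negative call) and blue points among HIF-1 and glycolysis genes (0 against 5), while oxidative phosphorylation genes (0 of 36 called) crowd around 0.

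The largest stronger rises outside the lists included genes of low basal expression. Gfra1, a GDNF co-receptor, was 76.2, 83.1 and 106 in KO IFNg, 1.23, 0 and 0 in KO control, 17.9, 36.5 and 33.8 in WT IFNg and 3.23, 4.51 and 4.88 in WT control libraries. KO control cells held a read in only 1 library, so the interaction of 3.59 ± 0.74 (adjusted p = 0.0051) depends on the added pseudocount. Arnt2, a dimerisation partner of HIF and other PAS proteins, was 151, 154 and 155 in KO IFNg, 10.4, 16.7 and 9.65 in KO control, 28.7, 30.8 and 34.5 in WT IFNg and 15.6, 18.1 and 26.9 in WT control libraries. It rose by 3.58 ± 0.34 in KO cells, whereas its response in WT cells, 0.64 ± 0.34, did not pass the test (interaction 2.94 ± 0.48, adjusted p = 0.00041). Ccdc39, a ciliary protein, rose in both genotypes and by 2.03 ± 0.31 more in KO (adjusted p = 0.00019).

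Of 27 genes of the unfolded protein and ATF4 list, 6 were positive and 1 negative (1.32% and 1.18% of all genes), with a list median of 0.02. Asns, asparagine synthetase and a target of ATF4, was 5804, 5886 and 6024 in KO IFNg, 213, 217 and 226 in KO control, 5215, 5323 and 5355 in WT IFNg and 383, 382 and 386 in WT control libraries; KO control cells were at 57.1% of WT control cells (interaction 0.96 ± 0.11, adjusted p = 9.2e-06). Atf4 itself rose by 1.91 ± 0.04 in KO and 1.56 ± 0.04 in WT cells (interaction 0.36 ± 0.05, adjusted p = 0.00014), and Ddit3 (CHOP) by 0.53 ± 0.06 in KO, with an uncalled 0.06 ± 0.06 in WT cells (interaction 0.46 ± 0.08). Psat1, an enzyme of serine synthesis, was the exception at 1853, 2019 and 2048 in KO IFNg, 196, 236 and 241 in KO control, 3897, 3878 and 3779 in WT IFNg and 176, 193 and 215 in WT control libraries, with a rise of 3.14 ± 0.09 in KO and 4.31 ± 0.09 in WT cells (interaction -1.17 ± 0.13, adjusted p = 5.5e-06). Nfe2l2 (NRF2), the antioxidant regulator, had an interaction of 0.58 ± 0.07 and the peroxidase gene Prdx1 one of 0.60 ± 0.11 (adjusted p = 7.6e-06 and 0.0024). Sqstm1 (p62), an autophagy receptor, rose in KO by 0.74 ± 0.06, with an uncalled 0.14 ± 0.06 in WT cells (interaction 0.60 ± 0.09, adjusted p = 9e-05).

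Stronger falls numbered 56. Kcnj2, an inward rectifier potassium channel, was 1264, 1275 and 1126 in KO IFNg, 8112, 7503 and 8652 in KO control, 1107, 1187 and 1176 in WT IFNg and 4206, 4358 and 3937 in WT control libraries. The values with IFNg overlapped, and KO control cells stood above WT control cells (interaction -0.88 ± 0.13, adjusted p = 8.3e-05). Rin3, a Rab5 exchange factor, fell in KO cells (-1.07 ± 0.10), with an uncalled response of 0.04 ± 0.10 in WT cells (interaction -1.11 ± 0.14). Tes, a focal adhesion protein, was 674, 667 and 751 in KO IFNg, 1459, 1397 and 1486 in KO control, 884, 858 and 875 in WT IFNg and 981, 1023 and 962 in WT control libraries, a change of sides between the states (interaction -0.87 ± 0.08, adjusted p = 1.3e-07). The kinase gene Grk5 and the phosphodiesterase gene Pde2a had interactions of -1.20 ± 0.27 and -0.88 ± 0.16.

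The rise was weaker in KO for 154 genes. Itgb8, the integrin chain that activates TGF-beta, was 89.8, 130.4 and 120.5 in KO IFNg, 56.4, 55.4 and 57.0 in KO control, 203, 198 and 170.2 in WT IFNg and 11.3, 19.3 and 14.7 in WT control libraries. KO cells were higher in control and lower with IFNg, with responses of 0.98 ± 0.18 in KO and 3.60 ± 0.18 in WT cells (interaction -2.61 ± 0.25, adjusted p = 5.3e-07). Fzd1, a Wnt receptor, did the same at 935, 971 and 950.3 in KO IFNg, 316, 319 and 286 in KO control, 1458, 1413 and 1388 in WT IFNg and 122, 108 and 103 in WT control libraries (interaction -2.04 ± 0.10, adjusted p = 6.9e-12). Siglece, an inhibitory sialic acid receptor, was 22, 20.5 and 16.1 in KO IFNg, 11.6, 7.32 and 7.02 in KO control, 108, 113 and 107 in WT IFNg and 6.47, 8.38 and 9.77 in WT control libraries. Its control values overlapped, and its rise was 1.11 ± 0.25 in KO and 3.60 ± 0.25 in WT cells (interaction -2.49 ± 0.35, adjusted p = 6.2e-05). Mmp14, a membrane matrix protease, reached 1439 ± 27.3 in KO and 3226 ± 87.1 in WT cells with IFNg, against 45.6 ± 4.46 in KO and 55.5 ± 9.61 in WT control cells (interaction -0.90 ± 0.13, adjusted p = 0.00012).

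Of the Fc gamma receptors, through which antibodies reach macrophages and which share sequence with each other, Fcgr2b and Fcgr4 rose less in KO, while Fcgr1 was lower in KO in both states without an interaction (0.11 ± 0.08, adjusted p = 0.79). Fcgr4 was 24779.7, 25332 and 26696 in KO IFNg, 1698, 1563 and 1549 in KO control, 27181, 27906 and 27889 in WT IFNg and 1080.5, 1099.6 and 967 in WT control libraries, with responses of 4.0 ± 0.06 in KO and 4.72 ± 0.06 in WT cells (interaction -0.72 ± 0.09, adjusted p = 1.4e-05). The inhibitory Fcgr2b remained higher in KO with IFNg, at 17359, 18453 and 17969.7 in KO and 13260.2, 13862 and 13777 in WT cells, against 7060.3, 6971 and 7045 in KO control cells and 3601, 3758 and 3419 in WT control cells (interaction -0.57 ± 0.07, adjusted p = 1.5e-05). Complement C3 likewise rose less in KO (interaction -0.46 ± 0.09, adjusted p = 0.0025). Of the 22 genes of the MHC class I list 2 were called, both negative (1.18% of all genes): Tapbpl, a peptide editor, at -0.52 ± 0.09 (adjusted p = 0.00047), and Psmb8, an immunoproteasome subunit, at -0.28 ± 0.07 (adjusted p = 0.031). Calls in either direction came to 9.09% of the list, beside 9.65% of the genes raised by at least 1 log2 unit. The call of Psmb8 was lost in 11 of 23 alternatives, 8 of which left out 1 library (KO control replicate 2, each KO IFNg library, WT control replicates 2 and 3, and WT IFNg replicates 1 and 3; adjusted p 0.051 to 0.12).

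Glycolytic genes, targets of the HIF-1 pathway that CITED2 is known to restrain, rose less in KO where an interaction was called. The HIF-1 and glycolysis list had 0 positive and 5 negative calls of 40, against 1.32% and 1.18% of all genes, with a median of -0.15 (1 positive and 13 negative at an unadjusted p below 0.05). Over the alternatives the negative calls numbered 3 to 13, the positive calls 0 to 1, and the median stayed between -0.19 and -0.13. Slc2a1, the glucose transporter GLUT1, was 2687, 2387 and 2408 in KO IFNg, 751, 785 and 723 in KO control, 3149, 2859 and 2895 in WT IFNg and 560.2, 589 and 618 in WT control libraries. The genotypes were ordered KO above WT in control cells and KO below WT with IFNg (interaction -0.61 ± 0.11, adjusted p = 0.0011). Hk2, a hexokinase, and Tpi1, triosephosphate isomerase, had interactions of -0.47 ± 0.09 and -0.47 ± 0.10 (adjusted p = 0.0027 and 0.007); that of Tpi1 came from the cells with IFNg, at 5381, 4760.5 and 5027 in KO and 7015, 6556 and 6954 in WT cells, and that of Hk2 from the control cells. Pfkp was called as well (-0.27 ± 0.05, lost after median centring and in edgeR with adjusted p of 0.073 and 0.063). Oxidative phosphorylation genes had 0 calls of 36 in limma (0 at an unadjusted p below 0.05), in edgeR and in the other alternatives.

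Weaker falls, 101 genes, are those that IFNg repressed less in KO cells. Smad3, a TGF-beta effector that can bind CITED2, was 161, 127 and 126 in KO IFNg, 351, 317 and 302 in KO control, 79.8, 61.5 and 83.2 in WT IFNg and 341, 346 and 322 in WT control libraries. Control cells overlapped, and KO cells with IFNg stood above WT cells with IFNg (interaction 0.94 ± 0.20, adjusted p = 0.0063). Sla, an adaptor that dampens receptor signalling, was 127, 144 and 122 in KO IFNg, 310.0, 263 and 333 in KO control, 63.7, 63.8 and 78.9 in WT IFNg and 345, 338 and 320.0 in WT control libraries, the same order (interaction 1.08 ± 0.20, adjusted p = 0.0016). Ms4a4a was 84.7, 77.3 and 81.6 in KO IFNg, 91.3, 66.9 and 88.6 in KO control, 43.0, 61.5 and 59.0 in WT IFNg and 146, 166 and 119.7 in WT control libraries; it fell in WT cells, with responses of -0.01 (uncalled) in KO and -1.39 in WT cells (interaction 1.38 ± 0.25, adjusted p = 0.0011). Fabp4, a fatty acid binding protein, and Lipa, the lysosomal acid lipase, fell less in KO, with interactions of 0.54 ± 0.08 and 0.44 ± 0.08 (adjusted p = 0.00012 and 0.0011). Nxpe5 had an interaction of 1.56 ± 0.33, with a difference mainly in control cells, where KO was at 23.7% of WT.

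Genes of macrophage identity had 5 positive and 3 negative calls of 33 (1.32% and 1.18% of all genes). Mertk, the receptor through which macrophages take up dying cells, was 5311, 5293 and 5293 in KO IFNg, 1907, 1915 and 1850.3 in KO control, 3668, 3959.7 and 3881 in WT IFNg and 2013, 2154 and 2103 in WT control libraries. The KO control values lay slightly below the WT control values, and KO cells with IFNg stood above all other groups (interaction 0.61 ± 0.07, adjusted p = 3.4e-06). Lyz1, a lysozyme, was lower in KO, with log2 differences of -1.07 with IFNg and -1.15 in control cells. Ptgs1, the constitutive cyclooxygenase, was lower in KO in both states and fell less (interaction 0.75 ± 0.16, adjusted p = 0.0064). C5ar1, the complement C5a receptor, fell in both, with responses of -1.22 in KO and -1.58 in WT cells (interaction 0.36 ± 0.08, adjusted p = 0.0083). Acsl1, which activates fatty acids, rose to 14029.9, 14074 and 14316 in KO and 20895, 21701 and 22003 in WT cells with IFNg (interaction -0.41 ± 0.06, adjusted p = 0.00028).

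Of the other lists, complement and protease genes had 3 positive and 2 negative calls of 23 (21.7%, against 2.50% of all genes) and NRF2 genes 3 and 0 of 20 (15.0%). Alternative activation genes had 3 and 1 of 32 (12.5%) and lipid handling genes 2 and 1 of 27 (11.1%). There were 1 and 1 of 26 immediate early genes (7.69%), 1 and 0 of 13 arginine and nitric oxide genes (7.69%) and 1 and 0 of 40 cell cycle genes (2.5%, the share over all genes). Among 12 partners and paralogs of CITED2 the 1 call was Smad3 (8.33%, against 2.50% of all genes). Of 8 genes beside Cited2 on chromosome 10, 2 were called, both with a negative interaction (1.18% of all genes). Abracl was 1427, 1692 and 1566 in KO IFNg, 655, 645 and 730.5 in KO control, 2563, 2886 and 2678 in WT IFNg and 828, 820.3 and 782 in WT control libraries, an interaction of -0.54 ± 0.11 (adjusted p = 0.0042), and that of Reps1 was -0.39 ± 0.10 (adjusted p = 0.026). Reps1 rose in WT cells (0.38 ± 0.07), while its response of -0.01 ± 0.07 in KO cells was not called. The call of Reps1 was lost after median centring and without KO control replicate 2, KO IFNg replicate 2 or 3, WT control replicate 1 or 3, or WT IFNg replicate 1 or 3 (adjusted p 0.056 to 0.12).

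Some of the largest interactions lay in gene families on chromosome 7. Trim30d (ENSMUSG00000057596; chromosome 7, 104470014 to 104507849, minus strand), a tripartite motif protein induced by interferons, was 2635, 3001 and 2935 in KO IFNg, 27.6, 10.5 and 34.2 in KO control, 4782, 5438 and 5014 in WT IFNg and 574, 698 and 559 in WT control libraries. KO control cells were at 3.95% of WT control cells and KO cells with IFNg at 56.3% of WT cells with IFNg, so its rise was 6.98 ± 0.23 in KO and 3.06 ± 0.23 in WT cells (interaction 3.92 ± 0.32, adjusted p = 4.8e-08). Its neighbour Trim30e-ps1, a pseudogene, was 152, 140.0 and 167 in KO cells with IFNg and 15.9, 6.27 and 9.65 in KO control cells, against 1 read in the 3 WT libraries with IFNg and 0 in WT control cells. Trim12a was the other way round, with 0 reads in KO cells with IFNg and 0, 1.05 and 0.877 in KO control cells, against 1365, 1379.6 and 1312 in WT cells with IFNg and 442, 467 and 374 in WT control cells. Trim30a, in the same cluster, had an uncalled interaction of 0.39 ± 0.13 (adjusted p = 0.14). Gvin1 (ENSMUSG00000045868; chromosome 7, 106156556 to 106215326, minus strand), a very large interferon-inducible GTPase, had no read in the 6 KO libraries and was 326, 345 and 359 in WT cells with IFNg and 11.3, 21.9 and 7.33 in WT control cells. Set against a floor of 3 reads over the KO group, the WT level was at least 332-fold higher with IFNg and at least 16.8-fold higher in control cells. Its interaction of -4.69 ± 0.60 (adjusted p = 2e-05) depends on the pseudocount and was not called by edgeR or DESeq2 (adjusted p of 1.0 and 0.15). Members of both families are near copies of each other, reads may be divided between them, and the part of this in their values was not tested. The labels give C57BL/6 for both genotypes. A difference in the DNA sequence around Trim30, Trim12a and Gvin1 cannot be told apart here from an effect of the loss of CITED2. The same limit holds for other genes, Prcp on the same chromosome among them. Trim30e-ps1, Trim12a and Trim30a were named after their values were seen.

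As baseline shifts with no called interaction, 298 genes (1.60%) were higher and 224 (1.20%) lower in KO in both states, by a median of 0.48 log2 units. Kept apart from them were 92 genes (0.494%) that also differed in both states without a called interaction. The interval of their interaction reached beyond 1 log2 unit. Of these 77 were higher and 15 lower in KO, by a larger median of 2.50, and 43 reached a group mean of 50. Mmp13, a collagenase, was 8342, 9714 and 9285 in KO IFNg, 728, 721 and 751 in KO control, 1858, 2242 and 2180.0 in WT IFNg and 215, 201 and 151 in WT control libraries. IFNg raised it by 3.63 ± 0.10 in KO and 3.47 ± 0.10 in WT cells, and the genotypes stayed apart by 2.12 with IFNg and 1.97 in control cells (interaction 0.16 ± 0.14, 95% interval -0.14 to 0.46). Flt1, a VEGF receptor, was 903, 929 and 944 in KO IFNg, 191, 181 and 222 in KO control, 243, 296 and 265 in WT IFNg and 60.9, 53.5 and 61.1 in WT control libraries (interaction 0.05 ± 0.20). Clec7a (dectin-1), the receptor for fungal beta-glucan, was 27716, 31195 and 31504 in KO IFNg, 20846, 21031 and 23859 in KO control, 14018, 15999 and 15622 in WT IFNg and 9042, 9420.1 and 8705 in WT control libraries (interaction -0.29 ± 0.10, adjusted p = 0.18). Tnfrsf10b, a death receptor, was higher in KO by 2.35 with IFNg and 2.48 in control cells.

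Among the genes that were lower in KO, Fcrls, a scavenger-like Fc receptor homolog, was 308, 275 and 282 in KO IFNg, 428, 404 and 419 in KO control, 989, 937 and 909.8 in WT IFNg and 1553, 1609.7 and 1487 in WT control libraries. It fell with IFNg in both genotypes, with responses of -0.53 in KO and -0.71 in WT cells (interaction 0.18 ± 0.09). Ccr2, the receptor that recruits monocytes, was 632, 626 and 653 in KO IFNg, 174, 187 and 189 in KO control, 1409, 1683 and 1495 in WT IFNg and 588, 622 and 539.8 in WT control libraries (interaction 0.40 ± 0.21, adjusted p = 0.58). C1qa, a chain of complement C1q, was 8788, 6405 and 6952 in KO IFNg, 2426, 2926 and 2353 in KO control, 14176, 12470.1 and 12585 in WT IFNg and 4821, 5321 and 6277 in WT control libraries (interaction 0.25 ± 0.19). Tmem176b, Ctla2a and the kinase gene Mapk11 were lower in KO too, with log2 differences of -2.22, -1.80 and -1.49 with IFNg and of -1.95, -1.69 and -1.51 in control cells.

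**Figure D4:**
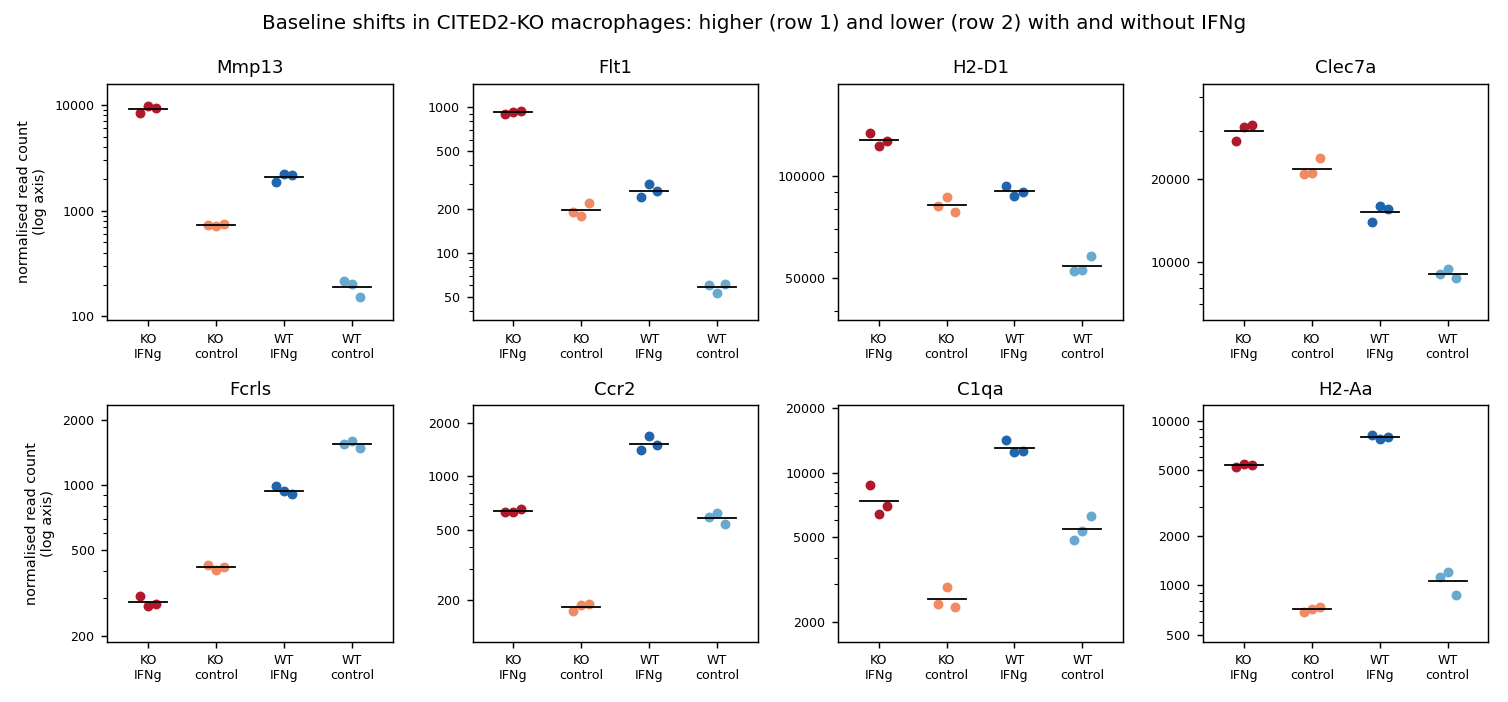
Normalised read counts (log axis, scaled for each gene) of 8 genes with a baseline shift, higher in KO in row 1 and lower in KO in row 2; points are the 3 libraries of a group and lines their mean. In every panel the KO and WT values lie apart both with IFNg and in control cells; for H2-D1 and Clec7a the step from control to IFNg is small beside Mmp13.

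Antigen presentation genes showed the shift in opposite directions by class. Of 22 MHC class I and immunoproteasome genes, 9 were shifted up (1.60% of all genes) and 0 down. H2-D1 was 134155, 122674 and 127298 in KO IFNg, 81707, 87132 and 78284 in KO control, 93322, 87472 and 89889 in WT IFNg and 52677, 52821 and 58213 in WT control libraries, with an interaction of -0.09 ± 0.09, and H2-Q7 was higher in KO by 0.66 with IFNg and 0.92 in control cells; both belong to a family of near copies that may share reads. Of 15 MHC class II genes, 6 were shifted down (1.20% of all genes) and 1, the protease Ctss, up. H2-Aa was 5279, 5470.1 and 5364 in KO IFNg, 683, 719 and 741 in KO control, 8242, 7727 and 8038 in WT IFNg and 1123, 1203 and 867 in WT control libraries, a rise of 2.91 ± 0.09 in KO and 2.92 ± 0.09 in WT cells (interaction -0.01 ± 0.12). H2-Eb1 was lower in KO, with log2 differences of -0.62 with IFNg and -0.60 in control cells. Icosl, a costimulatory ligand, was lower as well, with log2 differences of -0.93 with IFNg and -0.90 in control cells.

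Of 32 lysosome and autophagy genes, 10 were shifted up and 0 down (1.60% and 1.20% of all genes), and 2 had a positive interaction (1.32% of all genes), Sqstm1 (0.60 ± 0.09) and Gla (0.24 ± 0.06, adjusted p = 0.031, lost in 11 of 23 alternatives). The shifts were led by the beta-galactosidase gene Glb1 at 1703, 1500.3 and 1614 in KO IFNg, 1541, 1660.3 and 1508 in KO control, 732, 742 and 787 in WT IFNg and 704, 782 and 730.3 in WT control libraries. Its response to IFNg was called in neither genotype (0.03 ± 0.07 in KO and 0.03 ± 0.07 in WT cells). Of 32 sterol and fatty acid synthesis genes, 8 were shifted down (1.20% of all genes), 0 up and 0 had a called interaction in limma (5 at an unadjusted p below 0.05; 1 positive and 3 negative calls in edgeR). The stearoyl-CoA desaturase gene Scd2 was 261, 251 and 278 in KO IFNg, 861, 906 and 961 in KO control, 631, 641 and 650.0 in WT IFNg and 1628, 1641 and 1629 in WT control libraries (interaction -0.44 ± 0.27, adjusted p = 0.72, called in 4 of 23 alternatives). These 4 were the fit without LPS and IL4 libraries, edgeR, DESeq2 and library weights (adjusted p 0.0062, 0.012, 0.00034 and 0.038). Whether Scd2 is a baseline shift only thus depends on the fit. Scd1 was lower in KO, with log2 differences of -0.96 with IFNg and -0.88 in control cells. Plin2, the lipid droplet coat protein, was higher in KO in both states while IFNg lowered it in both, with responses of -2.07 in KO and -1.93 in WT cells. Epas1 (HIF-2 alpha) was 224, 235 and 244 in KO IFNg, 2155, 2265 and 2088 in KO control, 166, 169 and 155 in WT IFNg and 1285, 1472 and 1590.0 in WT control libraries, a fall of both genotypes with an interaction of -0.07 ± 0.12.

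Markers of other cell types were read beside these results. The B cell list summed to 2232 to 2374 in KO cells with IFNg, 2103 to 2429 in KO control cells, 503 to 552 in WT cells with IFNg and 1160 to 1278 in WT control cells. Immunoglobulin genes made up most of these sums. Igkc averaged 1434 ± 94.4 in KO IFNg, 1417 ± 121 in KO control, 247 ± 26.3 in WT IFNg and 169 ± 15.8 in WT control libraries, and Jchain shifted with it, by 2.58 with IFNg and 3.01 in control cells. Ighm was lower in KO in both states, at 107, 60.7 and 96.4 in KO IFNg, 98.0, 89.9 and 100 in KO control, 158, 160.1 and 132 in WT IFNg and 991, 991 and 894 in WT control libraries, an interaction of 2.51 ± 0.27 (adjusted p = 3.2e-06). Cr2 had no read in any of the 4 groups and Pax5 none in either group with IFNg. The T and NK cell list was highest with IFNg, at 1153 to 1220 in KO and 921 to 945 in WT cells, mainly through Lck, and lay at 75.3 to 84.5 in KO control cells and 73.3 to 89.0 in WT control cells. Neutrophil, stromal, T and NK, mast cell and erythroid lists had 0 called interactions in limma and edgeR (at an unadjusted p below 0.05, 1 neutrophil gene and 0 in the other 4). Of 10 dendritic cell markers 1 was called (10.0%, against 2.50% of all genes), Tcf4 (0.42 ± 0.10). Its call was lost after median centring and in some fits without 1 library (adjusted p 0.053 to 0.077). These left out KO control replicate 2, KO IFNg replicate 2, WT control replicate 2 or WT IFNg replicate 1. Whether cells of another type have a part in the interactions described was not tested.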

How the data were processed

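RNA sequencing of CITED2-KO and WT macrophages was analysed from the 1 deposited matrix of 43629 identifiers. The authors' deposited values are a signal: read counts divided by 1 factor per library, as the values themselves show. All values above 0 (100.0%) came out as whole reads within 0.05 reads. Per the submitters' processing notes, TopHat2 2.2.1, Cufflinks 2.2.1, Cuffdiff and build mm10 (GRCm38) were used, with no role given; the counter and the strand setting are not given in the sources used here.

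Values were tested as log2(value + 1) with limma 3.58.1 (trend, R 4.3.3) on the means of the 8 groups over all 24 libraries, with 16 residual degrees of freedom and Benjamini-Hochberg adjustment over the 18637 genes that reached a value of 1 in 3 or more libraries. Fold changes on this scale understate low genes. The log2 values written with ± carry the standard error; levels written with ± carry the SD. Alternatives were pseudocounts of 0.5 and 5, other filters, other sets of libraries, median centring, library weights, and edgeR 4.0.16 (quasi-likelihood) and DESeq2 1.42.0 on the recovered reads, by which edgeR called 587 interactions. The procedure was run on simulated reads with 1 dispersion for all genes and planted changes of at least 1 log2 unit. Most called interactions are smaller, so that run does not measure the error of the calls given here. Reads, without molecular identifiers, are not independent molecules, so the floor of 3 reads covers counting error only.

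Over all group pairs, same-numbered libraries did not deviate together (correlations -0.37 to 0.31, above 0.1 in 5 of 18 pairs). Between KO IFNg and WT IFNg libraries, all same-numbered correlations were positive (0.30, 0.31 and 0.06). With 3 libraries per group, such correlations cannot exclude that the numbers pair libraries of some groups. The main fit used no pairing. The genes named are 7 fixed ones, up to 5 of each response shape with the largest interaction among those called in all 12 fits without 1 library and with a group mean of at least 50, up to 4 baseline shifts in each direction, and up to 4 called genes and 2 shifts of each of 32 lists, 134 in all; other names were chosen after their values were seen or to complete a list. The members and lists were chosen with earlier results of these data known. Libraries with LPS or IL4 were not described. A named gene is not reported here.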

Additional observations from a re-analysis of the deposited data

Results flagged for a closer look

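The genotypes differed in their response to IFNg, by the test of the difference itself, with a positive interaction for 246 genes and a negative one for 220.

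Of the reversed responses named by the rule, its gene lists included, IFNg raised 6 in KO cells and lowered them in WT cells, each with both responses called. The interaction was 2.00 for Prcp, 1.74 for Dab2, 1.15 for Tlr7, 1.04 for Pgm2l1, 1.00 for Mrc1 and 0.68 for Maf on the log2 scale. In Prcp the mean of KO cells was above that of WT cells in both states. In Maf the mean of KO cells was below that of WT cells in both states. In Dab2, Tlr7, Pgm2l1 and Mrc1 it was above that of WT cells with IFNg and below it in control cells. The interaction was -1.46 for Myh10 and -0.74 for Btg2, which IFNg lowered in KO cells and raised in WT cells. All 8 calls held in each of the 12 fits that left out 1 library. For Prcp, Dab2, Tlr7, Pgm2l1 and Myh10 this was a condition of being named, so it adds no support. Of all 20 reversed responses, 14 held in each of these fits.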

How the results depend on the processing

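None of the 466 interactions was called in the opposite direction under any of the 23 alternatives, but the number of calls moved. Of the 466 calls, edgeR shared 412, DESeq2 449, the 12-library fit 423, the fit without the shallowest LPS library 466, median centring 332 and library weights 465. With library weights there were 757 positive and 763 negative interactions, 699 stronger, 755 weaker and 66 reversed responses, 942 baseline shifts, and 3063 genotype differences in control cells and 3512 with IFNg. DESeq2 gave 439 positive and 405 negative interactions, 353 stronger and 461 weaker responses and 2588 genotype differences with IFNg, and edgeR gave 31 reversed responses and 2533 such differences. Without the shallowest LPS library 333 negative interactions, 293 stronger and 31 reversed responses were called. Median centring left 144 negative interactions and 124 stronger responses, and the 12-library fit gave 37 reversed responses. The cause of these shifts was not tested.

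Leaving out 1 library at a time gave 202 to 236 positive and 163 to 209 negative interactions, 150 to 176 stronger, 209 to 234 weaker and 15 to 20 reversed responses, and 437 to 475 baseline shifts. It gave 7762 to 8586 responses in KO cells, 7679 to 8447 in WT cells, and genotype differences of 1008 to 1358 in control cells and 1263 to 1684 with IFNg. Whether the replicate numbers pair the libraries is not settled. Adding the replicate number as a block gave 227 positive and 197 negative interactions, of which 422 were shared with the fit without it.

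Of the 84 named genes with a called interaction, 71 were called in every alternative and 13 lost the call in at least 1. Of 50 named genes without a call, 13 gained it in at least 1. The genes named for the largest interactions of a shape had to be called in all 12 fits without 1 library, and called list genes were taken by smallest p. These counts therefore do not stand for all calls, of which 317 of 466 held in those 12 fits. The median interaction over all genes stayed between -0.03 and 0.00. Medians of many lists changed sign between alternatives. Among them were guanylate-binding proteins (-0.39 to 0.11), Toll-like receptors (-0.01 to 0.04), stress genes (-0.01 to 0.07) and immunity-related GTPases (-0.05 to 0.02). Others were complement and protease (-0.14 to 0.04), lipid handling (-0.04 to 0.12), alternative activation (-0.10 to 0.04), immediate early (-0.08 to 0.05) and oxidative phosphorylation genes (-0.02 to 0.05). Genes with few reads in a group, such as Gfra1, Nos2 and Gvin1, are limited by depth, since their log2 responses depend on the pseudocount.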
